A study of Mus musculus with 3 samples.

Results

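Sphingosine-1-phosphate (S1P) and the chemokine CXCL12 are signals that guide blood cells between tissue and vessels. Occupancy of the transcription factors (TFs) FLI1 and RUNX1 was examined at 8 mouse genes of these systems: Sphk1 and Sphk2, which encode the kinases that make S1P; S1pr1, S1pr2 and S1pr4, which encode S1P receptors; Cxcl12; and Cxcr4 and Cxcr7, which encode receptors that bind CXCL12. The genes were taken by name, and all 8 were found among the 22367 protein-coding genes of the GENCODE M1 annotation of genome build mm9. Reads were counted within 2 kb of each transcription start site (TSS), here called the TSS window, and across the gene body with 20 kb on either side, here called the territory, which was divided into bins of 400 bp.

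The cells were mature megakaryocytes (MK), the platelet-forming cells of the marrow, cultured for 5 days from the liver of wild-type CD1 mouse embryos, which the labels place at E15. Lineages were separated with antibodies and albumin gradients, so the material is a purified culture and not tissue. ChIP-seq sequences the DNA fragments that an antibody pulls down with its target. It was available as 1 FLI1 library and 1 RUNX1 library, each combining at least 3 precipitates, beside 1 library of input DNA. There were no replicates and no second condition, so no test between samples was made, and every interval below is an exact 95% interval that covers counting error only and takes reads as independent.

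S1P is made inside cells, exported, and kept high in blood, where it draws cells that carry S1PR1 across the vessel wall; S1PR2 commonly opposes such movement. MK extend proplatelets into marrow sinusoids, and S1P acting through S1PR1 is known for guiding them. CXCL12 from stromal cells attracts and retains cells through CXCR4, whereas CXCR7 mainly binds and removes the chemokine. FLI1 is an ETS-family factor that recognises a GGAA core, and RUNX1 recognises TGTGGT or close variants.

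After removal of mitochondrial reads, and of 3.24% of input reads that repeated a position, 62946422 FLI1, 3973856 RUNX1 and 21745220 input reads remained. A 400-bp bin held on average 10.6 FLI1 reads and 0.668 RUNX1 reads, so the RUNX1 reads resolve far less. The RUNX1 file holds far fewer reads than the study lists as uniquely mapped for that antibody, so a missing RUNX1 call speaks only of the reads counted here. FLI1 reads were set beside the label of the cells: all 5 MK markers reported (Itga2b, Gp1ba, Gp9, Pf4 and Itgb3) held at least 2 times the input density in the TSS window, against 0 of 5 erythroid, 1 of 5 granulocyte and monocyte, 0 of 5 lymphoid and 0 of 5 stromal and endothelial markers. Of all genes 25.7% did. For RUNX1 only 1 of the 5 MK markers did, Gp9, against 2 of 5 stromal and endothelial markers. In each of the other marker lists 0 of 5 did, and of all genes 16.7%. These reads locate DNA and do not measure expression, and a gene on the list of another cell type may be active in MK.

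The FLI1 regions described here are best seen with their sequence. The DNA at 9 FLI1 summits, the base of a called region covered by most extended reads, is printed on the strand of the gene, 5′ to 3′. Capitals mark ETS words, which are CAGGAAA or CAGGAAG or CCGGAAA or CCGGAAG on either strand, and in Sphk2 the shorter CCGGAA. Stretches that fall in untranslated exons were cut to 30 bases or left out. They are 4 of the 5 summits within 2 kb of the gene's own start and 5 distant ones, which are those with the most FLI1 reads at S1pr1, S1pr4 and Sphk1 and a pair from S1pr2.
Sphk2, 28 bp upstream of the TSS, chr7:52973382-52973411: cgggacactctatCCGGAActggcgtctct
S1pr2, 11 bp upstream of the TSS, chr9:20781238-20781298: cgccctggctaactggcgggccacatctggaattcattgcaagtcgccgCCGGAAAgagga
S1pr4, 9 bp upstream of the TSS, chr10:80962453-80962511: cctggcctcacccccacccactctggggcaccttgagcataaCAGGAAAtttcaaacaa
Cxcr4, 1347 bp into the gene, intron, chr1:130487473-130487573: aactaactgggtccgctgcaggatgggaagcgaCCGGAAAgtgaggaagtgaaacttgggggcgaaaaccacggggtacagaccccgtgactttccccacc
S1pr1, 21441 bp downstream of the TSS, intergenic, chr3:115396482-115396582: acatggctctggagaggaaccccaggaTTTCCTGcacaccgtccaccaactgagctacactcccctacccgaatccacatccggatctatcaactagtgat
S1pr2, 15091 bp downstream of the TSS, intergenic, chr9:20766096-20766196: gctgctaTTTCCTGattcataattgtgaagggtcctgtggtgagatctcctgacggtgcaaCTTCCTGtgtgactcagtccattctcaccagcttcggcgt
S1pr2, 23903 bp downstream of the TSS, intergenic, chr9:20757318-20757384: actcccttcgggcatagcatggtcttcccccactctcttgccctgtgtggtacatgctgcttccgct
S1pr4, 20069 bp upstream of the TSS, Gna15 intron, chr10:80982471-80982571: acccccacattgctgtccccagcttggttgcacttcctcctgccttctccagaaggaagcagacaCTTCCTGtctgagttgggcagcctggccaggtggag
Sphk1, 18534 bp downstream of the TSS, Ube2o intron, chr11:116410723-116410823: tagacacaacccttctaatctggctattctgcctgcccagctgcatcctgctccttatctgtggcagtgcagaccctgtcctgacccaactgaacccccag
All coordinates are mm9. A summit lay within 50 bp of an ETS word in 7 of 18 regions (38.9%), against 7.92% of windows of the same 101 bp drawn from the TSS windows of all protein-coding genes. RUNX words (TGTGGT or TGCGGT) lay at 3 summits (16.7%, against 8.09%), and GATA words (AGATAA or AGATAG or TGATAA or TGATAG) at 2 (11.1%, against 15.3%). The Sphk2 summit held none of the 4 ETS words. The word CCGGAA was counted only after the Sphk2 sequence had been seen, and was present at 3 of 18 summits (16.7%, against 2.18%), those of Sphk2, S1pr2 and Cxcr4. The Sphk1 sequence held no ETS word and 1 GATA word, AGATAA on the other strand. All background windows lie near gene starts, whereas only 5 of the 18 summits lay within 2 kb of the gene's own start. The shares thus come from unlike locations, and no test was made between them. A word is a description of the sequence and not proof of a site.

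FLI1 was enriched at the starts of 2 of the 8 genes, Sphk2 and S1pr2, when enrichment means at least 2 times the depth-scaled input in the TSS window. Over all genes with at least 10 input reads there, 25.7% passed, so the count among the 8 genes was at the background. Neither call held in a window of 5 kb on either side, where Sphk2 was at 1.97 and S1pr2 at 1.51. The share of all genes that pass in that window was not counted. RUNX1 passed at 0 of 8, against 16.7% of all genes. The median FLI1 fold of the 8 genes was 1.51 and that of all genes 1.28. For RUNX1 these medians were 1.35 and 1.19.

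**Figure D1:**
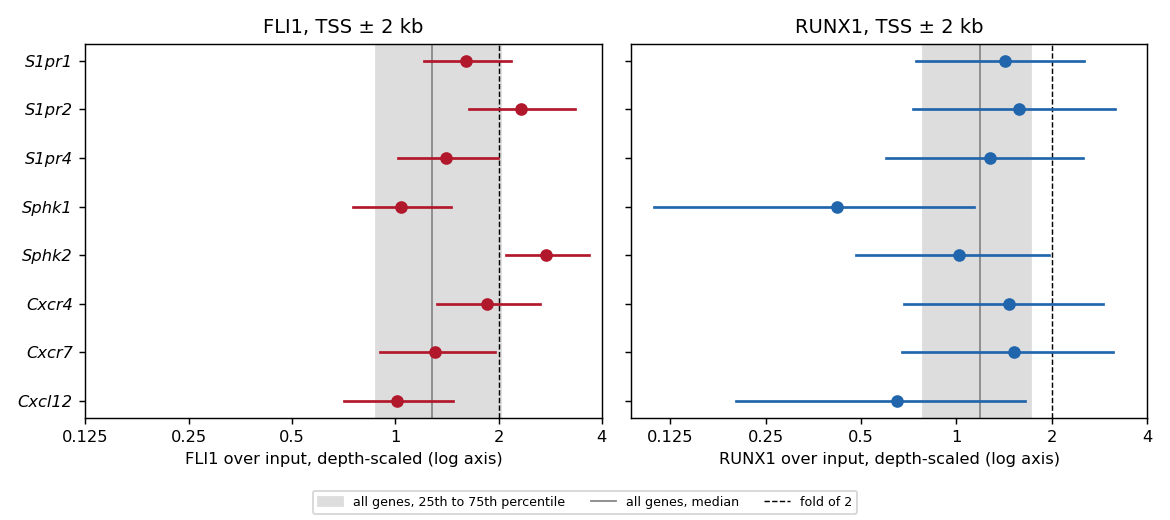
FLI1 (left) and RUNX1 (right) over input in the TSS windows of the 8 genes, on log axes, with exact 95% counting intervals. The grey band spans the 25th to 75th percentile of all genes. Sphk2 lies highest for FLI1 at 2.75, and every RUNX1 interval includes 1.

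The S1P kinases differed at their starts in FLI1 reads over input. The Sphk2 window held 470 FLI1 reads, 11 RUNX1 reads and 59 input reads. Its FLI1 fold was 2.75 (2.1 to 3.67), higher than in 87.9% of genes, and its RUNX1 fold 1.02 (0.483 to 1.96). The Sphk1 window held 156 FLI1, 4 RUNX1 and 52 input reads. Its FLI1 fold was 1.04 (0.753 to 1.45) and its RUNX1 fold 0.421 (0.111 to 1.14), the latter 1.36 within 5 kb. The FLI1 intervals of the kinases do not overlap, whereas those for RUNX1 do. The size of this difference varied with the processing. In 1 random draw of FLI1 reads at the RUNX1 depth, the FLI1 fold was 1.58 at Sphk1 and 2.69 at Sphk2. Chromatin for FLI1 and RUNX1 was sheared by sonication, whereas labels and methods differ on how the input was fragmented. With the RUNX1 library in place of the input, the FLI1 fold was 2.7 (1.49 to 5.44) at Sphk2. At Sphk1 it was 2.46 (0.943 to 9.15), where only 4 reads stand in the reference. The kinases cannot be told apart on that scale.

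Among the S1P receptors, S1pr2 held 255 FLI1, 11 RUNX1 and 38 input reads in its TSS window. The FLI1 fold was 2.32 (1.64 to 3.35), above 81.2% of genes, but only 1.46 (0.804 to 2.97) over the RUNX1 library. S1pr1, the receptor that guides proplatelets, held 271, 15 and 58 reads, a FLI1 fold of 1.61 (1.21 to 2.18). S1pr4, a receptor found mainly on blood cells, held 192, 11 and 47 reads, a FLI1 fold of 1.41 (1.02 to 1.99). The 3 receptor intervals overlap, which alone does not settle their order, and differences between the receptors were not tested. RUNX1 folds were 1.58 at S1pr2, 1.42 at S1pr1 and 1.28 at S1pr4, each with an interval that includes 1.

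The S1pr1 value depended on the window. Within 1 kb of its TSS there were 156 FLI1, 10 RUNX1 and 20 input reads, and the folds rose to 2.69 (1.69 to 4.53) for FLI1 and 2.74 (1.14 to 6.12) for RUNX1. In windows of this size 37.4% of all genes reached a FLI1 fold of 2 and 29.1% a RUNX1 fold of 2. Sphk2 reached 3.81 (2.59 to 5.83) and S1pr2 2.53 (1.65 to 4.06) for FLI1 in the same window. Within 5 kb, in contrast, the S1pr1 folds were 1.22 for FLI1 and 1.02 for RUNX1. No 400-bp bin of the S1pr1 TSS window passed the bin call below. Its highest held 50 FLI1 reads, 2.47 times the expectation.

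At the chemokine genes, the Cxcr4 window held 219 FLI1, 11 RUNX1 and 41 input reads. Its FLI1 fold was 1.85 (1.32 to 2.64) and its RUNX1 fold 1.47 (0.681 to 2.91). Cxcr7 held 137, 10 and 36 reads, a FLI1 fold of 1.31 (0.905 to 1.95) and a RUNX1 fold of 1.52 (0.673 to 3.13). Cxcl12 held 123, 5 and 42 reads, a FLI1 fold of 1.01 (0.707 to 1.47) and a RUNX1 fold of 0.651 (0.201 to 1.64). The Cxcr4 interval overlapped both others for FLI1 as for RUNX1. Overlap alone does not settle whether these genes differ, and their differences were not tested. Within 1 kb the FLI1 folds of Cxcr4 and Cxcr7 were 1.51 and 1.52, and over the RUNX1 library Cxcl12 was highest at 1.55. From highest to lowest FLI1 fold the 8 genes ran Sphk2, S1pr2, Cxcr4, S1pr1, S1pr4, Cxcr7, Sphk1 and Cxcl12, and no neighbours in this order had separate intervals.

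Bins within the territories showed where these reads lay. A bin was called for FLI1 at 3 times or more the highest of the genome-wide mean, the scaled input of the bin and the scaled input of 5 kb around it, which takes at least 32 reads. Of 960 bins in the 8 territories, 24 were called (2.5%). Among bins with a read in the merged territories of all genes, 0.783% were called. These shares are not like for like, because the 8 genes span only 1230 to 12833 bp and gene length was not matched. The count of 24 also ran from 7 at a fold of 5 to 48 in 1 random draw of FLI1 reads at the RUNX1 depth. Adjoining called bins were joined into 18 regions. They lay in 6 of 8 territories, a share close to the 62.8% of all genes with a called bin. Called bins lay in 4 of 8 TSS windows, those of Sphk2, S1pr2, S1pr4 and Cxcr4, against 37% of all genes. Regions and summits were chosen on the FLI1 and input reads themselves. The FLI1 folds and intervals given below for summits tend to be high by that choice and do not test enrichment. RUNX1 folds at the summits share the same input reads.

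**Figure D2:**
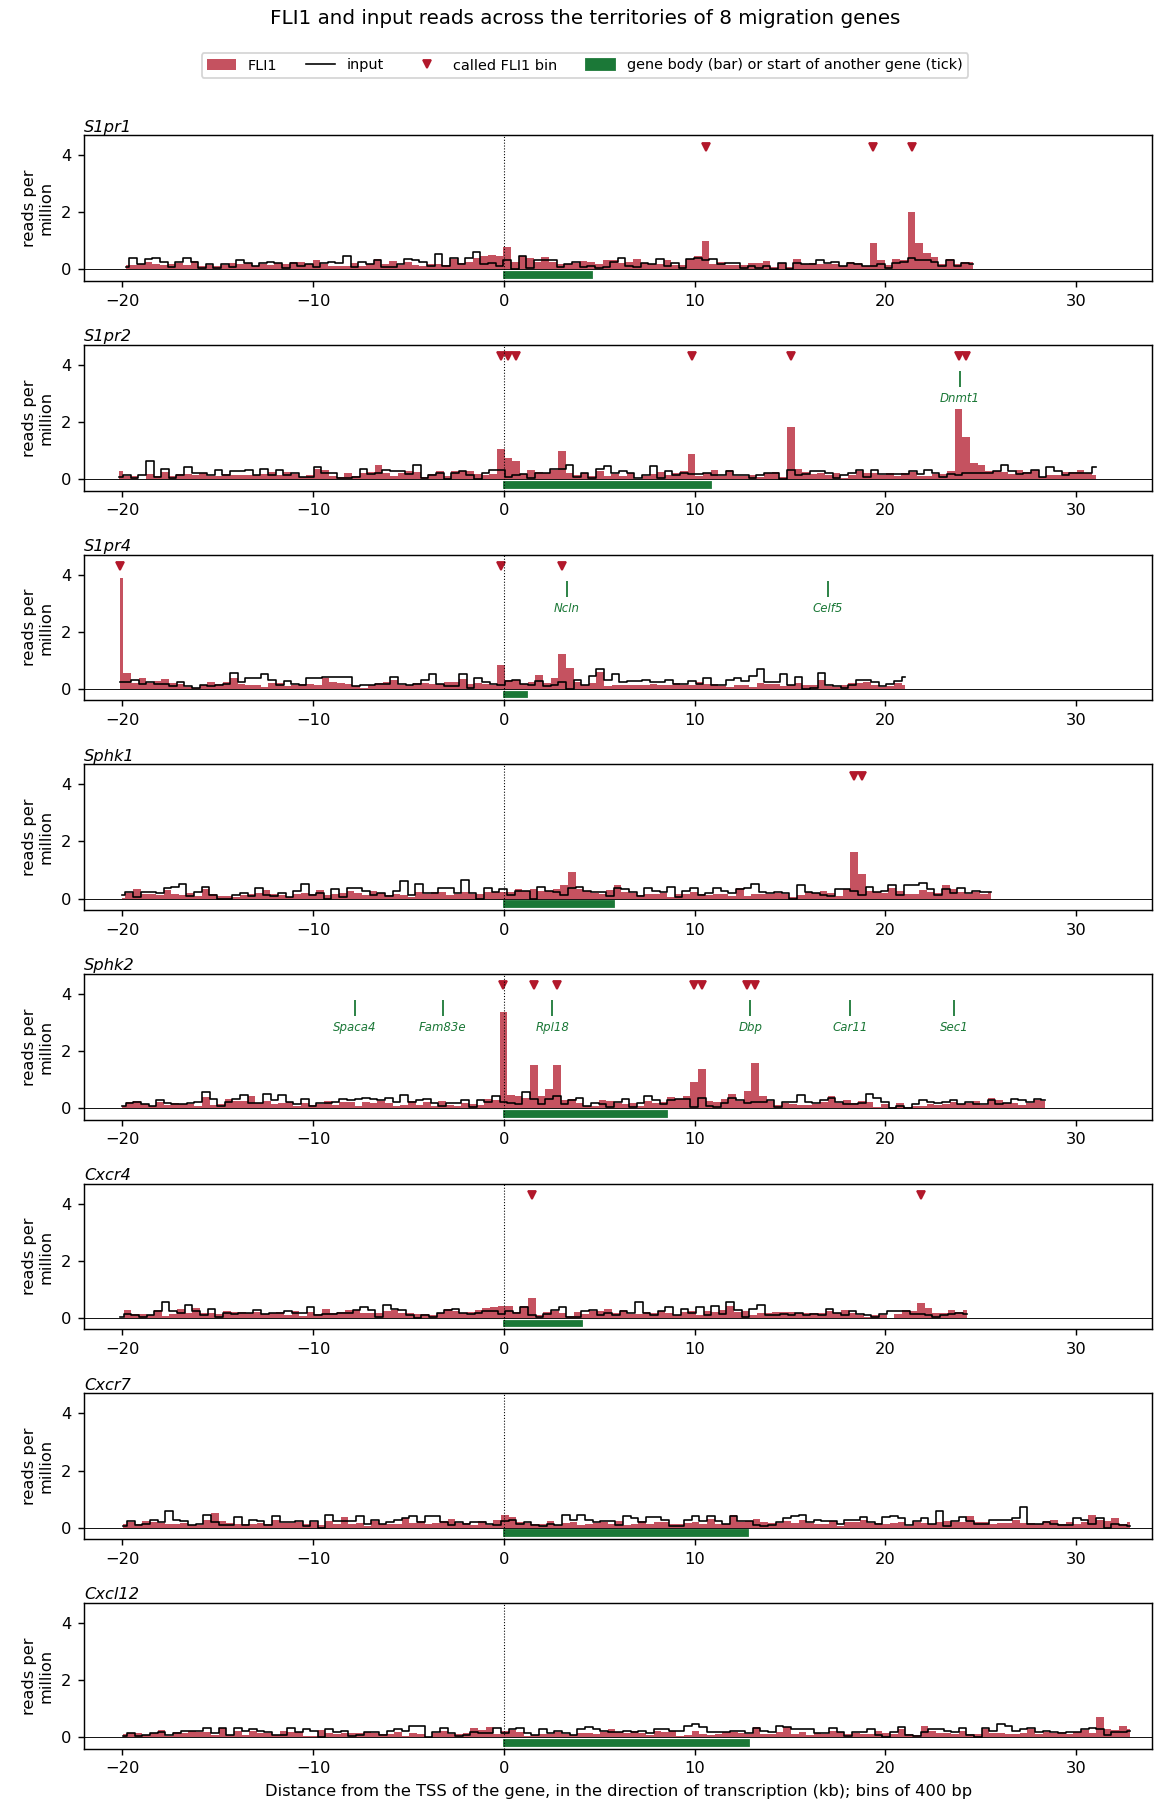
FLI1 (red) and input (black line) reads, scaled to depth (RPM), in 400-bp bins against the distance from the TSS of each gene, with called FLI1 bins as triangles, the gene body as a green bar and starts of other genes as ticks. Sphk2 and S1pr2 each hold 7 called bins, Cxcr7 and Cxcl12 none.

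Not all called regions lay nearest the start of a migration gene. Distance to protein-coding gene starts does not show which gene a region acts on, and this was not tested. The gene's own start was the nearest TSS for 10 of the 18 regions, and the start of another gene for 8. In 4 regions the summit lay under 300 bp from another start, those of Dnmt1, Ncln, Rpl18 and Dbp. Dnmt1 encodes the maintenance DNA methyltransferase, Rpl18 a ribosomal protein and Dbp a circadian regulator. Only 5 regions had a summit within 2 kb of the migration gene's own TSS.

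Sphk2 carried 5 regions. The summit 28 bp upstream of its TSS held 213 FLI1, 5 RUNX1 and 5 input reads in the 400 bp around it, a FLI1 fold of 14.7 (6.21 to 45.8) and a RUNX1 fold of 5.47 (1.26 to 23.8). This base is also in an untranslated exon of Rpl18, which lies on the opposite strand and overlaps the Sphk2 start, so the position cannot be given to one gene alone. The regions at 1659 and 2632 bp held 106 FLI1 reads each and had the Rpl18 start nearest. At 2632 bp, 87 bp upstream of that start, there were also 8 RUNX1 reads and 9 input reads, a RUNX1 fold of 4.86 (1.63 to 14.2). The regions at 10221 and 13177 bp held 99 and 96 FLI1 reads and 1 RUNX1 read each, and lay nearest Dbp.

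Sphk1 showed the opposite layout. No bin of its TSS window was called for FLI1, and the highest held 21 reads, 1.21 times the expectation. Its 1 called region lay 18534 bp downstream in an intron of Ube2o, with 134 FLI1, 3 RUNX1 and 5 input reads around the summit, a FLI1 fold of 9.26 (3.87 to 29). No protein-coding start lay nearer to it than that of Sphk1. The bin at 3562 bp inside the gene held 59 FLI1 reads, 2.55 times the expectation, and fell short of the call.

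At Sphk1, RUNX1 reads were densest inside the gene. The annotation gives Sphk1 17 transcript starts, and the last, 3815 bp after the first, had 31 RUNX1 reads and 58 input reads in its window, a RUNX1 fold of 2.92 (1.83 to 4.6). The FLI1 fold in that window was 1.33 (0.991 to 1.81). The highest RUNX1 fold over all starts was 2.93 (1.82 to 4.65), at 3235 bp. When the highest fold over all starts is taken for every gene, 20.7% reach 2 for RUNX1. The reads were spread over several bins, of which the fullest, at 2762 bp, held 7 RUNX1, 22 FLI1 and 5 input reads and reached 7.04 times the expectation. The window of the last start was rich in GC (59.2%, above 98.1% of TSS windows). Among the fifth of genes with the most GC, 18.5% were called for RUNX1, against 14.9% in the fifth with the least, and the part of base composition in the Sphk1 value was not tested.

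**Figure D3:**
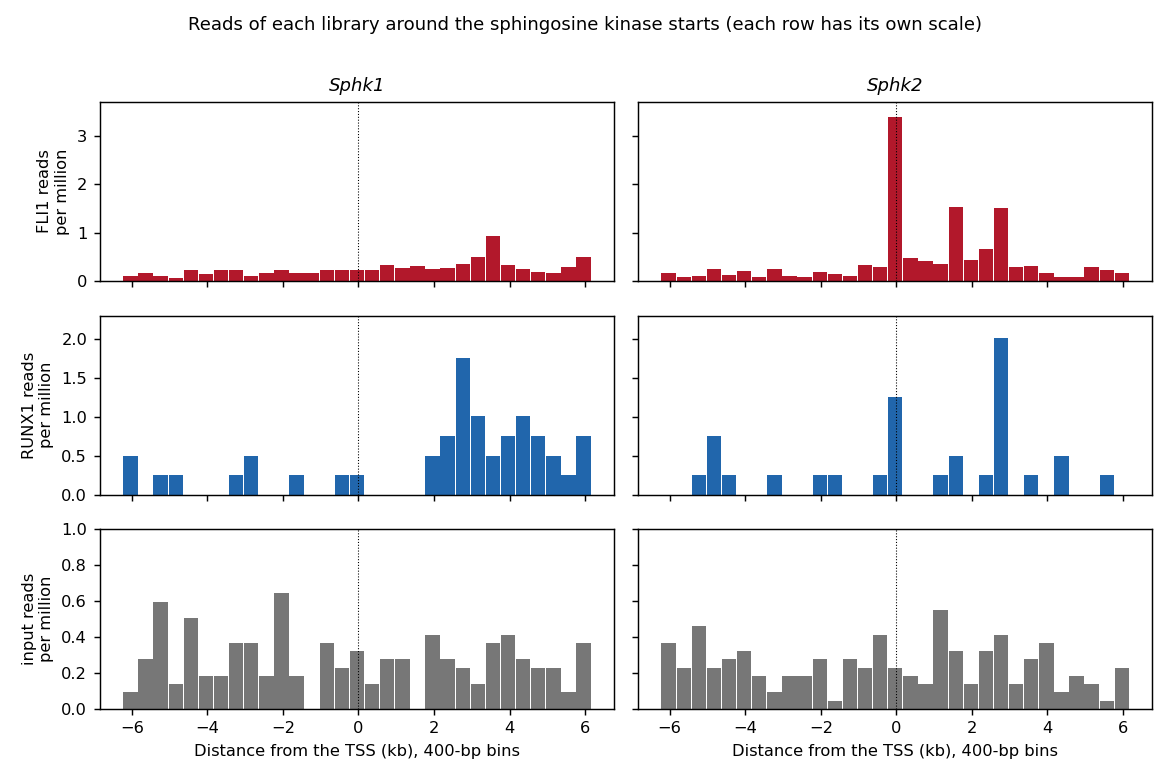
Depth-scaled reads (RPM) of each library in 400-bp bins around the starts of Sphk1 (left) and Sphk2 (right), with a separate scale for each row. Sphk2 has its highest FLI1 bin (3.38 RPM) at the TSS, whereas Sphk1 has its highest RUNX1 bin (1.76 RPM, from 7 reads) inside the gene.

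S1pr2 carried 4 regions. The summit 11 bp upstream of the TSS held 72 FLI1, 5 RUNX1 and 7 input reads, a FLI1 fold of 3.55 (1.64 to 9.15) and a RUNX1 fold of 3.91 (0.978 to 14.3). A region in an untranslated part of the gene, 9881 bp from the TSS, held 55 FLI1 reads. Beyond the gene, the intergenic region at 15091 bp held 115 FLI1, 1 RUNX1 and 7 input reads, a FLI1 fold of 5.68 (2.67 to 14.4), and its sequence above holds 2 ETS words and 1 RUNX word. The highest of the 4, at 23903 bp, held 163 FLI1, 3 RUNX1 and 4 input reads, a FLI1 fold of 14.1 (5.39 to 52.3). It lay 17 bp upstream of the Dnmt1 start, and a TGTGGT on the strand of both genes covered the summit.

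The called regions of S1pr1 were all intergenic and downstream of the gene, and no other protein-coding start was nearer. Summits lay 10605, 19297 and 21441 bp from the TSS and held 57, 61 and 129 FLI1 reads. The last, which is the one printed above, reached a FLI1 fold of 6.37 (3 to 16.2) with 1 RUNX1 and 7 input reads. Together the 3 called bins held 247 FLI1 reads and 1 RUNX1 read, a RUNX1 fold of 0.288 (0.00693 to 1.81). The fullest 400-bp bin of S1pr1 for FLI1 was thus away from the start.

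At S1pr4 the summit 9 bp upstream of the TSS held 58 FLI1, 0 RUNX1 and 3 input reads, a FLI1 fold of 6.68 (2.17 to 33.3). Here 2 ETS words lay within 15 bp of the summit, 1 of which is in the printed stretch. The region at 3202 bp lay 113 bp upstream of the Ncln start. The region with the most FLI1 reads at its summit among all 18 was at the upstream edge: its summit, 20069 bp from the TSS, is just past the 20-kb limit, and its bin straddles the edge. It held 255 FLI1, 7 RUNX1 and 6 input reads, a FLI1 fold of 14.7 (6.65 to 40.4) and a RUNX1 fold of 6.38 (1.84 to 23). It is in an intron of Gna15, which encodes a G-protein subunit of blood cells, 4449 bp from that gene's start.

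At Cxcr4 the 2 called regions were weak. The intron summit at 1347 bp held 46 FLI1, 2 RUNX1 and 4 input reads, a FLI1 fold of 3.97 (1.45 to 15.2), with the ETS word CCGGAAA on the strand of the gene. The other, at 21771 bp, held 30 FLI1, 4 RUNX1 and 4 input reads, a FLI1 fold of 2.59 (0.913 to 10.1), whose interval includes 1. Cxcr7 and Cxcl12 had no called bin. Their highest bins held 27 FLI1 reads (2.55 times the expectation, 30846 bp from the Cxcr7 TSS) and 44 FLI1 reads (2.53 times, 31248 bp from the Cxcl12 TSS).

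**Figure D4:**
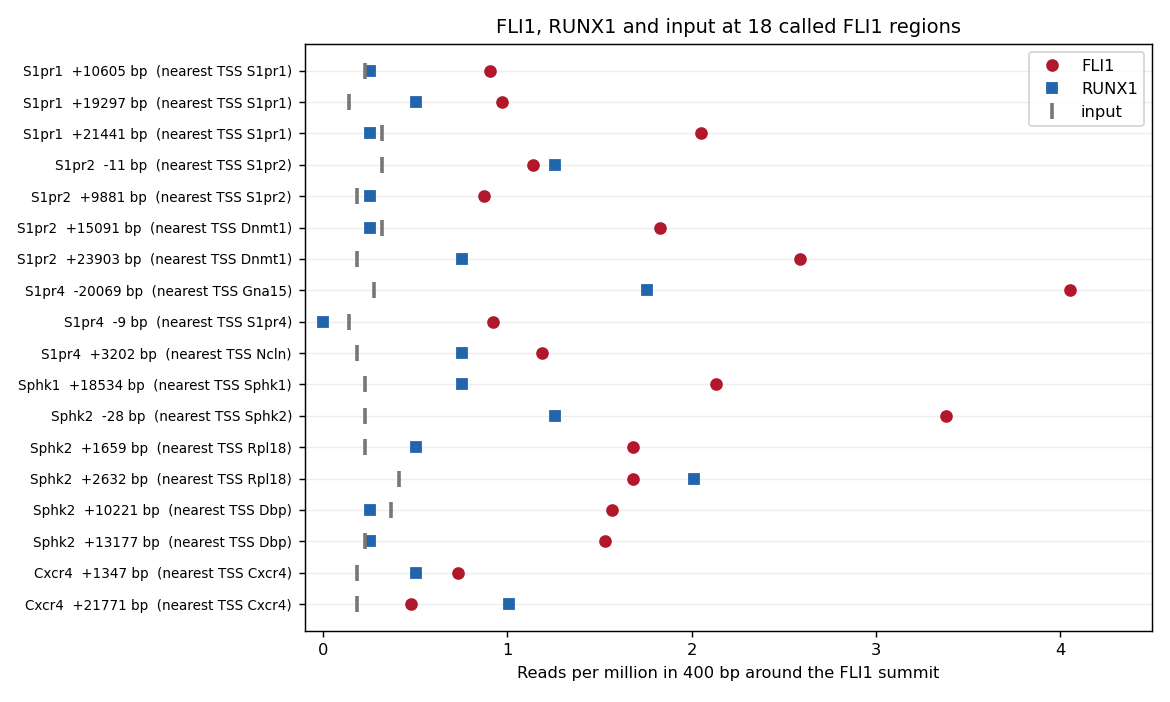
Depth-scaled reads (RPM) of FLI1, RUNX1 and input in 400 bp around the summits of the 18 called FLI1 regions, labelled with the gene, the distance from its TSS and the gene with the nearest start. FLI1 counts span 30 to 255 reads and RUNX1 counts 0 to 8 reads.

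Summed over whole territories, FLI1 stood above input at 3 genes. The folds were 1.27 (1.15 to 1.4) at S1pr1, 1.23 (1.12 to 1.35) at S1pr2 and 1.21 (1.11 to 1.33) at Sphk2. Cxcr4 was at 1.08 (0.972 to 1.2). The other four lay below 1, at 0.901 (0.821 to 0.99) for Sphk1, 0.866 (0.785 to 0.956) for S1pr4, 0.811 (0.74 to 0.889) for Cxcr7 and 0.81 (0.735 to 0.892) for Cxcl12. Over all genes, 29.7% had a territory interval above 1 and 37% one below. The median territory fold was 0.981. With flanks of 50 kb, S1pr2 fell to 0.987 and Sphk2 to 1, and S1pr1 was at 1 when FLI1 reads were drawn down to the RUNX1 depth. Over the RUNX1 library S1pr4 turned from below 1 to 1.11. Without input, the folds below 1 all rose above it, to 1.35 at Sphk1, 1.3 at S1pr4, 1.11 at Cxcr7 and 1.01 at Cxcl12. RUNX1 territory folds ran from 0.782 at S1pr4 to 1.05 at Sphk1. Only the S1pr4 interval (0.612 to 0.988) excluded 1, and without input the S1pr4 fold was 1.18. Over all genes, 25.4% had a RUNX1 territory interval below 1 and 11.8% one above.

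None of the 960 bins was called for RUNX1, where a call needs 8 times the expectation and at least 6 reads. Over all genes 0.0515% of bins in territories were called, 10.8% of territories held a called RUNX1 bin and 3.52% of TSS windows did. Weaker RUNX1 signal does not pass this rule, and the call rules of the antibodies do not compare their enrichment. A RUNX1 interval above 1 was found at 4 of the 18 FLI1 summits. This share was not counted over the FLI1 summits of all genes, so whether it is usual was not tested. Reads can also be pooled over bins. The 24 called FLI1 bins of the 8 territories held 53 RUNX1 and 116 input reads, a RUNX1 fold of 2.5 (1.77 to 3.49). The other 936 bins gave 0.899 (0.831 to 0.971). Across the genome the RUNX1 fold was 2.84 (2.81 to 2.87) in called FLI1 bins and 0.99 in the others, so the migration genes were near the level of FLI1 bins in general. By gene the pooled RUNX1 fold was 4.38 (0.869 to 20.3) at Cxcr4, 3.79 (1.43 to 9.58) at S1pr4, 3.65 (1.07 to 11.5) at Sphk1, 2.81 (1.55 to 4.93) at Sphk2, 2.29 (1.1 to 4.51) at S1pr2 and 0.288 at S1pr1. All of these intervals overlap. The S1pr4 value rested on the bin in Gna15 that crosses the 20-kb limit, and without it was 2.05 (0.351 to 8.55), from 3 RUNX1 and 8 input reads. The fold over all 8 territories was then 2.32 (1.61 to 3.29).

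The pathway lists in this paragraph and the next were chosen with earlier results of these data known, so their shares do not test enrichment. Other genes of S1P synthesis, breakdown, export and signalling were counted in the same way as the 8 genes. Of 32, 18 reached a FLI1 fold of 2 and 10 a RUNX1 fold of 2, against 25.7% and 16.7% of all genes. Their median folds were 2.14 and 1.63, and no test was made between them and the 8 genes. The highest FLI1 folds were those of Rac1 (5.61, 3.75 to 8.77), a GTPase of cell movement, Gnai3 (5.37, 3.8 to 7.84), a G-protein subunit coupled to S1P receptors, and Sptlc1 (4.54, 2.91 to 7.45), a subunit of the enzyme that starts sphingolipid synthesis. The S1P exporters Mfsd2b and Spns2 reached 2.6 (1.94 to 3.56) and 2.15 (1.57 to 3). S1P lyase, Sgpl1, reached 2.48 (1.68 to 3.76). The receptors outside the set did not: S1pr3 was at 0.612 (0.438 to 0.863) and S1pr5 at 0.886 (0.625 to 1.27). The genes called for RUNX1 were Gnai3, Cers5, Rhoa, Ppap2a, Degs1, Cers6, Rac1, Sgpl1, Spns2 and Sgpp2, from 3.38 (1.86 to 5.99) at Gnai3 to 2.01 (0.907 to 4.12) at Sgpp2. The intervals of Sgpp2 and of Rac1 (2.19, 0.938 to 4.72) include 1, and those of the other 8 do not. Of the genes called for RUNX1, Sgpp2 (1.27), Ppap2a (1.52) and Cers6 (1.71) did not reach a FLI1 fold of 2.

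Of 22 genes that act with or downstream of CXCR4, 12 reached a FLI1 fold of 2 and 6 a RUNX1 fold of 2, against 25.7% and 16.7% of all genes. Their median folds were 2.09 and 1.36, where those of all genes were 1.28 and 1.19. Cbl, a ubiquitin ligase, was highest at 5.76 (3.58 to 9.85), followed by Rgs18, a regulator of G-protein signalling abundant in platelets, at 5.05 (3.44 to 7.69) and Arrb2, an arrestin that turns receptors off, at 3.58 (2.74 to 4.76). RUNX1 calls were at Hmgb1 (4.95), Rgs18 (3.71), Cbl (3.65), Jak2 (3.28), Akt1 (2.24) and Elmo1 (2.19), all of which also passed for FLI1. Both folds share the input reads of the window. The share of all RUNX1-called genes that also pass for FLI1 was not counted. Dpp4, the peptidase that inactivates CXCL12, was lowest for FLI1 at 0.762 (0.555 to 1.06). With the RUNX1 library in place of the input, 10 of the 54 genes of both lists reached a FLI1 fold of 2 rather than 30, against 15% of all genes. The 8 migration genes then had 2 past that fold, Sphk2 and Sphk1, so these counts depend on the reference.

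**Figure D5:**
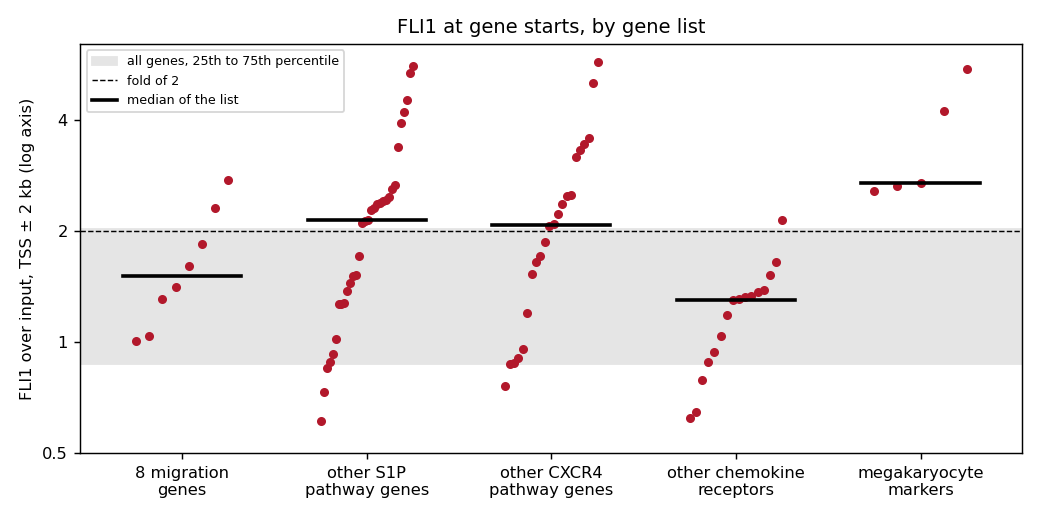
FLI1 fold over input in the TSS window, on a log axis, for each gene of 5 lists, with the median of each list as a bar and the 25th to 75th percentile of all genes in grey. The medians of the other S1P and CXCR4 pathway genes (2.14 and 2.09) lie above that of the 8 migration genes (1.51).

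The shape of FLI1 around the start was compared with that of all protein-coding genes, as the Euclidean distance between log2 folds over the expectation in 10 bins of 400 bp. For S1pr2 the closest genes were Zfp281 (distance 1.32) and Gm6899 (1.36), where the median gene lay at 4.40. For Sphk2 they were D4Ertd22e (1.81) and Prkab2 (1.93), with a median of 5.54. The closest genes lie below the median by selection. Closest distances were not counted for other genes, so how unusual these are was not tested. The Sphk2 profile peaked at a log2 fold of 3.30 in the bin just upstream of the TSS and had a second rise of 2.43 in the bin farthest downstream. The S1pr2 profile was broader, with 1.34, 1.97 and 1.84 in the 3 bins from 400 bp upstream of the TSS onwards.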

How the data were processed

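ChIP-seq reads of mature MK were analysed from FLI1, RUNX1 and input libraries, 1 of each. Bowtie (version not given in the sources used here) was used by the authors for mapping to mm9, and the deposited files list where each uniquely mapped read begins and ends and on which strand, 50 bp long for the antibodies and 34 bp for the input. No value in the files is normalized, and repeated positions had been removed from the antibody files only. Embryonic day, library kit and input fragmentation (micrococcal nuclease in the methods) are given differently in labels and methods, and the part of fragmentation in the folds was not tested beyond the RUNX1 library as reference. The submitters' processing notes also name MACS 1.4 and SICER 1.1.

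Here, reads were moved 75 bp towards the 3′ end, counted with Python 3.11.15 and NumPy 2.4.6 and scaled to library totals. Of sampled ChIP reads, 96.3% (FLI1) and 96.5% (RUNX1) lay within 3 mismatches of the genome at their coordinates. Intervals are Clopper-Pearson (SciPy 1.17.1). The fold and its interval were tested on simulated counts, whereas the counting of reads and the bin calls were not. The genes, lists and thresholds were chosen with earlier results of these data known. Named genes are the 8 genes, the 3 highest FLI1 folds and all RUNX1 calls of each pathway list, neighbours whose start lies within 2 kb of a called bin, and the closest profiles; Gna15 and Ube2o, which hold a summit, and S1pr3, S1pr5, Mfsd2b, Spns2, Sgpl1 and Dpp4 were added after their values were seen. The shares of all genes within 1 kb, over all starts and over the RUNX1 library, the fold without the bin across a territory edge, GC content and the choice of printed sequences were added after the values were seen. Older symbols of 4 ceramide synthases were matched after the files had been read. One gene of the MK marker list is not reported here, for a reason unrelated to its value. Alternatives were other shifts, references, scalings, windows, bins and thresholds.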

Additional observations from a re-analysis of the deposited data

How the results depend on the processing

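No paired analysis was possible because each antibody has 1 library. Of 64 alternatives of the summary results, 38 stayed within the limit, 26 moved and 0 reversed. The limit was 1.5 times for a count and the counting interval for a ratio. Reversed means that a fold whose interval excluded 1 came to lie on the other side of 1. By this rule none of the 64 could reverse, because they are counts or pooled territory folds whose main intervals include 1. The 0 is thus no sign of stability, and both pooled folds crossed 1 at some settings given below. Of 297 alternatives for single genes and pooled bins, 249 stayed, 40 moved and 8 reversed. All 8 were territory folds. Without input, FLI1 reached 1.3 at S1pr4, 1.35 at Sphk1, 1.11 at Cxcr7 and 1.01 at Cxcl12, and RUNX1 1.18 at S1pr4. Over the RUNX1 library S1pr4 was at 1.11 for FLI1, and with flanks of 50 kb S1pr2 was at 0.987 and Sphk2, before rounding just below, at 1. The 2 genes called for FLI1 at the start became 4 without input or at a fold of 1.5, and 0 at a fold of 3 or in a window of 5 kb. The 0 for RUNX1 became 1 without input, 1 in a window of 1 kb (S1pr1 in both), 1 with any transcript start (Sphk1) and 2 at a fold of 1.5. The 30 pathway genes became 12 at a fold of 3 and 10 over the RUNX1 library. Shares of all genes at a fold of 1.5 or 3, without input, within 5 kb or after thinning were not counted. Whether the gene counts moved more than those of all genes was thus not tested. The pooled territory fold of the 8 genes was 1.02 for FLI1 and became 1.05 with scaling to reads outside called bins, 1.37 without input, 1.09 over the RUNX1 library, 0.936 with flanks of 50 kb, and 0.924 in 1 random draw of FLI1 reads at the RUNX1 depth. For RUNX1 it was 0.934, and 1.26 without input. The 24 FLI1 bins became 43 at 200 bp, 11 at 1000 bp, 39 with the genome-wide mean only, 41 at a fold of 2, 7 at a fold of 5 and 48 after thinning. The 0 RUNX1 bins became 1 with the grid moved by 200 bp, 11 at 200 bp, 3 with the genome-wide mean only and 8 at a fold of 5. The number of bins changes with their size, so counts at 200 and 1000 bp do not compare with the others. Shares of bins called over all genes were not counted at these settings. Fewer reads per bin lower the count a call needs; the cause of the other shifts was not tested. The Sphk2 start fell to 1.97 and the S1pr2 start to 1.51 in the window of 5 kb. After thinning, Cxcr4 reached 2.4 at its start.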

Other observations

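Of 16 chemokine receptors beside CXCR4 and CXCR7, 1 reached a FLI1 fold of 2, Ccr1 at 2.15 (1.42 to 3.39), and 1 a RUNX1 fold of 2, Ccr3 at 2.89 with 19 RUNX1 and 36 input reads, against 25.7% and 16.7% of all genes. The FLI1 count became 3 at a fold of 1.5 or after thinning to the RUNX1 depth, and 0 at a fold of 3, where shares of all genes were not counted. Over the RUNX1 library it was 2, against 15% of all genes. Their median FLI1 fold was 1.31, near the 1.28 of all genes. The lowest were Ccr8 at 0.625 (0.45 to 0.877) and Ccr7 at 0.648 (0.476 to 0.89), the latter a receptor that leads lymphocytes and dendritic cells to lymph nodes. Among the MK markers, Itga2b, the platelet integrin, reached a FLI1 fold of 5.5 (4.06 to 7.64) and Pf4, a platelet chemokine, 4.25 (3.21 to 5.73). Of the genes on the lists of other cells, Mpo passed for FLI1 at 2.44 (1.68 to 3.65), and Pdgfra and Tek passed for RUNX1 at 3.06 and 2.21. Such genes need not be silent in MK.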
